A study of Mus musculus with 2 samples.

Results

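The canonical histone genes were read from the array by gene name: every biological probe whose name in the scanner files began with Hist1h, Hist2h, Hist3h or Hist4h was a member. This gave 55 probes for 49 gene names, out of 39429 probes and 29924 gene names on the array. By histone type there were 6 H1 genes (6 probes), 14 H2A genes (15 probes), 12 H2B genes (13 probes), 8 H3 genes (8 probes) and 9 H4 genes (13 probes). In mm9 coordinates, as the scanner files give them, the 41 probes of cluster 1 lay on chromosome 13 between bases 21814057 and 24026527, the 10 of cluster 2 on chromosome 3 between 96024171 and 96082813, the 3 of cluster 3 on chromosome 11, and the single probe of cluster 4 on chromosome 6.

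Ureters were taken from wildtype NMRI mouse embryos at E12.5 and kept as explants for 18 h. The BIO group received 10 µM BIO, an inhibitor of the kinase GSK3 that activates canonical WNT signaling, and the control group received the solvent DMSO at 2:1000. Each group was a pool of ureters per replicate, cultured without serum, and the sex of the embryos was not determined. Each of 2 arrays compared BIO RNA with control RNA in separate colors, and the dyes were exchanged on replicate 2. An explant holds mesenchyme, epithelium, vessels and blood, and in such bulk RNA fewer cells of a type and less RNA per cell cannot be told apart.

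Canonical histones package newly copied DNA: H2A, H2B, H3 and H4 form the core of the nucleosome, and H1 binds the linker DNA between nucleosomes. Their genes lie in clusters, have no introns and are transcribed mainly while DNA is replicated, and their mRNAs usually end in a conserved stem-loop instead of a poly(A) tail. Some members also give polyadenylated mRNA, among them Hist1h1c, Hist1h2bc and Hist2h2be, and Hist1h1t, Hist1h2aa and Hist1h2ba are known from testis. The labelling kit used here copies RNA from its poly(A) tail, and how much of each stem-loop-ended mRNA it captured was not measured.

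Members of a type are so alike that a probe can report several genes, so the sequences behind the H2A values are shown first. Of the tested H2A probes, 6 ended exactly in the stop codon of the coding sequence. They are given 5′ to 3′ on the mRNA strand, with capitals at the bases that differ from the Hist1h2ak sequence when both are aligned without gaps.
Hist1h2ak, chr13:21845304-21845363, minus strand: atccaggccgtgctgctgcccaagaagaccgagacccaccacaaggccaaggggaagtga
Hist1h2an, chr13:21902669-21902728, plus strand: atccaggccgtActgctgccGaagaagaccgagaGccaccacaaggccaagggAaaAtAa
Hist1h2af, chr13:23626113-23626172, plus strand: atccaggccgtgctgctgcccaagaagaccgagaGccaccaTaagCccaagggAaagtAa
Hist1h2ah, chr13:22127035-22127094, minus strand: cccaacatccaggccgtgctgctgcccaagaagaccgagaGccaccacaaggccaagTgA
Hist2h2aa2, chr3:96043781-96043840, minus strand: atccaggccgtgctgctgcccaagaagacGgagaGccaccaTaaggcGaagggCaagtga
Hist2h2ac, chr3:96024378-96024437, minus strand: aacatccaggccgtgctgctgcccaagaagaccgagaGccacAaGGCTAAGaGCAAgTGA
Against Hist1h2ak, Hist1h2ah differed at 3 of 54 aligned bases, Hist2h2aa2 and Hist1h2af at 5 of 60, Hist1h2an at 6 of 60 and Hist2h2ac at 16 of 57. The array's annotation lists more than 1 RefSeq transcript for 18 of the 55 probes. With a limit of at least 90% identity over at least 40 bases, 16 pairs of probes were alike. They joined 6 H2A probes (Hist1h2af, Hist1h2ag, Hist1h2ah, Hist1h2ak, Hist1h2an and Hist2h2aa2) and 3 H4 probes (Hist1h4d, Hist1h4j and Hist1h4k) into 2 groups. No probe sequence occurred under 2 names.

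Of the canonical histone probes a part rose with BIO, and 11 of the 23 rises were H2A probes. Of the 55 probes, 50 were well above background in at least the control or the BIO channel of both arrays and were tested, and 48 were so in all 4 channels. By limma's moderated test on the log2 ratio of BIO over control, adjusted over 28824 probes by the method of Benjamini and Hochberg, 23 of the 50 rose (46%, against 8.95% of all probes tested) and 5 fell (10%, against 14.3%). The median log2 ratio of the members was 0.32, with 0.21 on replicate 1 and 0.39 on replicate 2, and that of all probes tested was -0.01. Both arrays gave the same direction for 48 of the 50. The exceptions were Hist1h1b and Hist1h2bm. Centering each array on its median, in place of the intensity-dependent normalization, gave 11 rises and 2 falls. Counting each alike group as 1 member, an alternative chosen after seeing the data, gave 17 rises and 5 falls among 43 probes. The median was then 0.22. The shares of 8.95% and 14.3% belong to the main setting, and those of all probes under the alternatives are not given here.

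**Figure D1:**
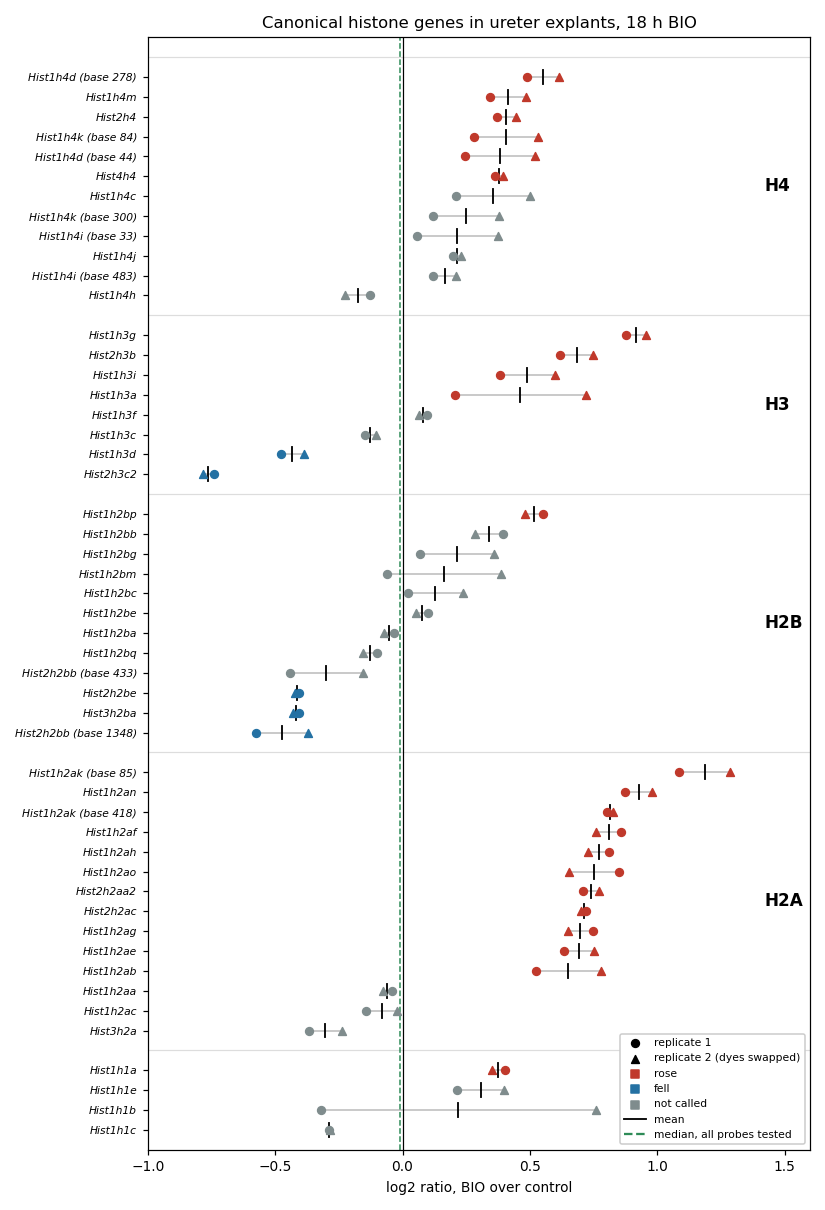
Log2 ratio of BIO over control (x axis) of the 50 tested canonical histone probes (y axis, by type), with a circle for replicate 1, a triangle for replicate 2 and a bar for their mean; red probes rose, blue probes fell and grey probes passed neither test. The 11 H2A rises lie between 0.65 and 1.19, all above the dashed median of all probes at -0.01, while the 12 H2B probes spread around 0.

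The 5 members that were not tested gave no ratio to read. Hist1h1d, the testis gene Hist1h1t and Hist2h2ab were not well above background in any channel. The pseudogene Hist3h2bb-ps reached that level only in the control channel of replicate 1. A second Hist2h4 probe reached it in the control of replicate 1 and in the BIO channel of replicate 2, which were both the green channel.

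Of the linker histone H1 genes, 4 of 6 were tested, 1 rose and none fell by limma's test (1 was lower at an unadjusted p under 0.05), and their median log2 ratio was 0.26. Over all probes tested, 8.95% rose and 14.3% fell. Hist1h1a, an H1 gene of dividing cells, gave processed signals of 27.2 and 33.1 in control and 47.7 and 50.5 with BIO in replicates 1 and 2. Both BIO values lay above both control values, and the log2 ratio was 0.38 ± 0.11 (SE, n = 2, limma adjusted p = 0.039). This call was lost with the scanner's own processed signals (limma adjusted p = 0.0506) and with median centering (limma adjusted p = 0.388). Hist1h1e had signals of 54.4 and 56.3 in control and 76.2 and 83.6 with BIO, and its log2 ratio of 0.31 ± 0.11 did not pass (limma adjusted p = 0.087). Hist1h1c, which can make polyadenylated mRNA, was the brightest H1 probe and lay the other way. Its signals were 1605 and 1738 in control and 1397 and 1433 with BIO, and its log2 ratio of -0.29 ± 0.11 did not pass (limma adjusted p = 0.092). Hist1h1b gave -0.32 on replicate 1 and 0.76 on replicate 2, so the green channel was the higher on both arrays, and it was not well above background in the control of replicate 2. Without replicate 2 the H1 median was -0.04.

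Of the 14 tested H2A probes 11 rose and none fell by limma's test (1 was lower at an unadjusted p under 0.05), and their median log2 ratio was 0.72, with 0.73 and 0.74 on the single arrays. The share of rises was 78.6%, against 8.95% of all probes tested, of which 14.3% fell. H2A pairs with H2B, and together they bear the acidic patch of the nucleosome surface. The largest rise among the members was at the probe that starts on the start codon of Hist1h2ak, chr13:21845637-21845696 on the minus strand, shown with the start codon in capitals.
Hist1h2ak, first coding bases: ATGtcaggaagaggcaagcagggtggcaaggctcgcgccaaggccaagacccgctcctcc
Its signals were 6965 and 7731 in control and 15802 and 18787 with BIO, a log2 ratio of 1.19 ± 0.11 (SE, n = 2, limma adjusted p = 0.00029). The Hist1h2ak probe at the other end of the coding sequence, printed above, went from 30755 and 35661 to 49668 and 64250. Its log2 ratio was 0.82 ± 0.11 (limma adjusted p = 0.0013), and this probe also lists the transcripts of 3 other genes, so it is not a value of Hist1h2ak alone.

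Hist1h2an followed, with 25914 and 30662 in control and 46007 and 61245 with BIO. Its log2 ratio was 0.93 ± 0.11 (SE, n = 2, limma adjusted p = 0.00077). The brightest H2A probe, Hist1h2ao, went from 43363 and 55084 to 68823 and 88915, a log2 ratio of 0.75 ± 0.11 (limma adjusted p = 0.0025). For each of these genes both BIO values were above both control values. The 6 probes that end in the stop codon all rose, from 0.71 for Hist2h2ac to 0.93 for Hist1h2an, and since the first 5 printed above are nearly alike, they are not 5 separate measurements. Counting each alike group as 1 member, by its brightest probe, the H2A median was 0.69. The 5 rises outside the alike group were the Hist1h2ak start, Hist1h2ao, Hist2h2ac, Hist1h2ae and Hist1h2ab. Of these the Hist1h2ao probe is no separate reading, since both transcripts it lists are also listed by the Hist1h2an probe of the alike group. The Hist1h2ab transcript is listed by the Hist1h2af and Hist1h2ak probes of that group too. The Hist1h2ak start and the Hist1h2ak stop-codon probe share a transcript as well. So these rises are not wholly separate from those of the group.

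Hist1h2ae and Hist1h2ab were dimmer. Hist1h2ae gave 50.8 and 49.5 in control and 101 and 109 with BIO, and a log2 ratio of 0.69 ± 0.11 (SE, n = 2, limma adjusted p = 0.0031). Hist1h2ab gave 78.7 and 90.1 in control and 136 and 180 with BIO, and a log2 ratio of 0.65 ± 0.12 (limma adjusted p = 0.0055). An offset added to every signal before the logarithm makes such dim probes' ratios smaller than those of their signals.

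The other 3 tested H2A probes did not pass and lay below 0. Hist3h2a went from 6320 and 6273 in control to 5039 and 5225 with BIO, a log2 ratio of -0.30 ± 0.11 (SE, n = 2, limma adjusted p = 0.084). Hist1h2aa, known from testis, gave 123 and 134 in control and 134 and 127 with BIO, and the groups overlapped. Hist1h2ac, read at base 2426 of its target, had signals of 19.1 and 19.0 in control and 15.5 and 18.1 with BIO, and a log2 ratio of -0.08 ± 0.11 (limma adjusted p = 0.65).

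**Figure D2:**
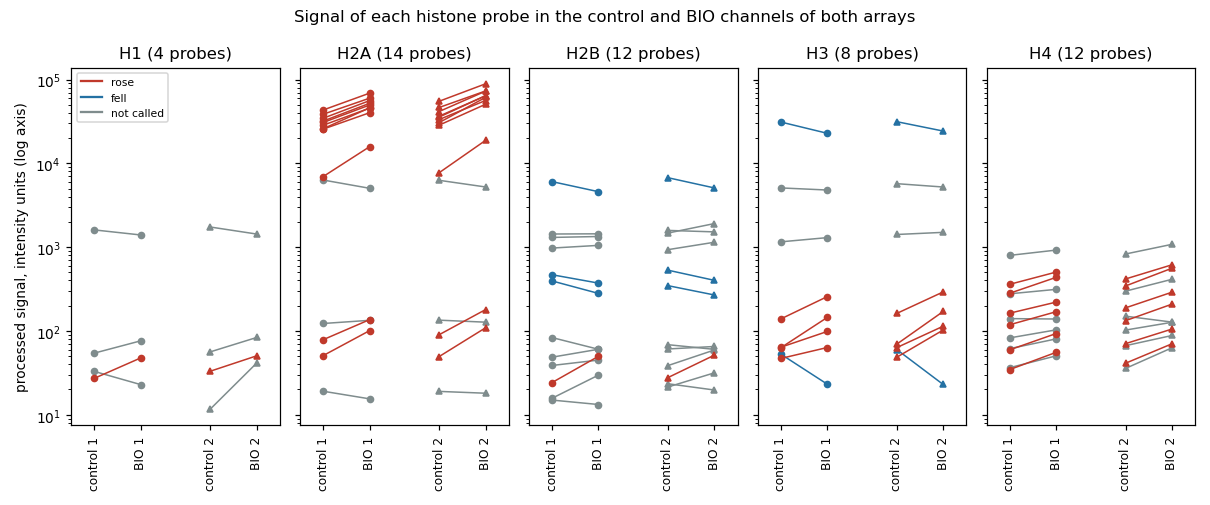
Processed signal (y axis, intensity units on a log axis) of each tested histone probe in the control and BIO channels of replicates 1 and 2 (x axis), in a panel per type, with a line joining the channels of an array; red probes rose, blue probes fell and grey probes passed neither test. The H2A panel shows the Hist1h2ak start probe going from 6965 to 15802 on replicate 1, below a bundle of bright H2A lines that all run upward.

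The probes of H2B, the partner of H2A in the nucleosome, did not move with the H2A probes as a group. The 2 sets also differed in brightness, with median control signals of 25780 and 29620 for H2A and 239 and 208 for H2B. The H2A rises were read at bases 85 to 542 of their targets and the 3 H2B falls at bases 542, 1348 and 1849. H2B probes that did not pass lay anywhere from base 36 to 2375. The part of brightness and place in the contrast was not tested. Of 12 tested H2B probes 1 rose and 3 fell, 6 ratios were above 0 and 6 below, and the median log2 ratio was 0.01. The share of rises, 8.33%, was near the 8.95% of all probes tested, and that of falls was 25% against 14.3%. Hist1h2bp was the member that rose, from 24.2 and 27.8 in control to 49.8 and 51.4 with BIO. Its log2 ratio was 0.52 ± 0.11 (SE, n = 2, limma adjusted p = 0.011). This call held with the scanner's own processed signals (limma adjusted p = 0.0379) and was lost with median centering (limma adjusted p = 0.141). The 3 falls were Hist2h2bb, Hist3h2ba and Hist2h2be, of clusters 2 and 3.

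Hist3h2ba was the brightest tested H2B probe, with 6050 and 6737 in control and 4590 and 5088 with BIO. The groups did not overlap, and the log2 ratio was -0.42 ± 0.11 (SE, n = 2, limma adjusted p = 0.026). Hist2h2be, which can make polyadenylated mRNA, gave 468 and 531 in control and 372 and 402 with BIO. Its log2 ratio was -0.42 ± 0.11 (limma adjusted p = 0.027). Hist2h2bb was read at 2 places. At base 1348 of its target it fell, from 395 and 347 to 280 and 269, with a log2 ratio of -0.47 ± 0.11 (limma adjusted p = 0.020). At base 433, where the probe holds the stem-loop, the signals of 83.3 and 68.5 in control and 60.4 and 60.3 with BIO gave -0.30 ± 0.12 (limma adjusted p = 0.11). The 3 called falls did not pass with the scanner's own processed signals, where the adjusted p ranged from 0.0817 to 0.0952.

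The polyadenylated member Hist1h2bc gave 975 and 933 in control and 1050 and 1143 with BIO, and a log2 ratio of 0.13 ± 0.11 (limma adjusted p = 0.47). Hist1h2ba, known from testis, gave 1306 and 1583 in control and 1339 and 1521 with BIO. The remaining H2B probes that did not pass were Hist1h2bb at 0.34, Hist1h2bg at 0.21, Hist1h2bm at 0.16, Hist1h2be at 0.08 and Hist1h2bq at -0.13 on the log2 scale. Hist1h2bm had -0.06 on replicate 1 and 0.39 on replicate 2, and Hist1h2bq was not well above background with BIO on replicate 1.

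Several H2A and H2B genes lie head to head as neighbours, and 4 such pairs had both genes tested. Hist1h2ae rose by 0.69 on the log2 scale beside Hist1h2bg at 0.21, which did not pass. The testis pair Hist1h2aa and Hist1h2ba stood at -0.06 and -0.05, neither passing. The other pairs, Hist1h2an with Hist1h2bp and Hist1h2ao with Hist1h2bq, cannot be read as single genes. The Hist1h2an probe lists the transcripts of 4 genes, and those of Hist1h2ao and Hist1h2bq list 2 each. The difference within a pair was not tested.

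All 8 H3 probes were tested, and 4 rose while 2 fell, with a median log2 ratio of 0.27 (0.15 on replicate 1 and 0.33 on replicate 2). These are 50% and 25%, against 8.95% and 14.3% of all probes tested. H3 carries the tail whose modifications mark active and silent chromatin. Hist1h3g gave 63.1 and 69.6 in control and 145 and 171 with BIO, a log2 ratio of 0.92 ± 0.11 (SE, n = 2, limma adjusted p = 0.00078). Hist2h3b went from 139 and 162 to 257 and 292, a log2 ratio of 0.68 ± 0.11 (limma adjusted p = 0.0034). The Hist2h3b probe lists the transcripts of 3 genes, so it is not a value of Hist2h3b alone. Hist1h3i went from 63.9 and 63.3 to 98.6 and 114, a log2 ratio of 0.49 ± 0.11 (limma adjusted p = 0.017). In each of the 3 both BIO values exceeded both control values, which describes the same signals and is no further test. Hist1h3a gave 0.20 and 0.72 on the 2 arrays, and its mean of 0.46 ± 0.14 passed narrowly (limma adjusted p = 0.047).

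The 2 H3 falls were of unlike brightness. Hist2h3c2 fell from 52.8 and 60.0 in control to 23.1 and 23.0 with BIO. Its log2 ratio of -0.76 ± 0.11 (SE, n = 2, limma adjusted p = 0.0018) was the lowest among the members. Hist1h3d was the brightest H3 probe and went from 31112 and 31409 to 22834 and 24292, a log2 ratio of -0.43 ± 0.11 (limma adjusted p = 0.024). The Hist1h3d probe lists the transcripts of 4 genes, so it is not a value of Hist1h3d alone. With median centering Hist1h3d stood at -0.21 (limma adjusted p = 0.707). Hist1h3c at -0.13 and Hist1h3f at 0.08 did not pass.

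Of 12 tested H4 probes 6 rose and none fell by limma's test (0 were lower at an unadjusted p under 0.05), 11 had a mean ratio above 0, and the median log2 ratio was 0.37 (0.23 on replicate 1 and 0.42 on replicate 2). The share of rises was 50%, against 8.95% of all probes tested, of which 14.3% fell. H4 forms the inner tetramer of the nucleosome together with H3. Hist1h4d had 2 probes, and both rose. At base 278 of its target its signals were 282 and 344 in control and 436 and 560 with BIO, a log2 ratio of 0.55 ± 0.11 (SE, n = 2, limma adjusted p = 0.0089). The probe at base 44 went from 163 and 189 to 221 and 290, a log2 ratio of 0.38 ± 0.12 (limma adjusted p = 0.0495). This probe lists the transcripts of 3 genes and belongs to the alike H4 group, so it is not a value of Hist1h4d alone. Hist1h4m, whose probe lists the transcripts of 2 genes, went from 34.6 and 41.2 to 55.5 and 70.2, a log2 ratio of 0.41 ± 0.11 (limma adjusted p = 0.030). Hist2h4 went from 360 and 417 to 504 and 615, also a log2 ratio of 0.41 ± 0.11 (limma adjusted p = 0.029). The remaining rises were a Hist1h4k probe at 0.41 and Hist4h4 at 0.38.

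The brightest H4 probe was another of Hist1h4k, at base 300 of its target, with 798 and 829 in control and 922 and 1080 with BIO. Its log2 ratio of 0.25 ± 0.12 did not pass (limma adjusted p = 0.17), so the 2 Hist1h4k probes had the same direction and a different call. The probe at base 300 lists the transcripts of 4 genes and the one that rose those of 2, so neither is a value of Hist1h4k alone. Hist1h4c at 0.36, Hist1h4j at 0.21, both Hist1h4i probes at 0.22 and 0.17 and Hist1h4h at -0.18 did not pass either. No H4 probe was called with median centering, and 2 were with the processed signals.

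A second rule asked for a 2-fold difference in the same direction on both arrays, with the brighter channel at 100 or more. It was met by 2 members higher with BIO and by none lower, against 0.695% and 1.37% of all probes. These were the Hist1h2ak start, at 2.27-fold and 2.43-fold, and Hist1h3g, at 2.30-fold and 2.45-fold. With a minimum of 1.5-fold 14 members met the rule higher with BIO and 0 lower, against 2.38% and 3.31% of all probes.

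Probes that the array's annotation lists for the same transcript did not always move alike. Of 23 histone transcripts addressed by more than 1 tested probe, 3 had a probe that rose and another that fell. For Hist2h3c2 the gene's own probe, at base 957 of its target, fell, whereas the Hist2h3b probe lists the Hist2h3c2 transcript too and rose. That probe covers coding bases, at base 304 of its target, chr3:96072881-96072940 on the plus strand.
Hist2h3b: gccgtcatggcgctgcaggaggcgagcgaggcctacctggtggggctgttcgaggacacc
For Hist2h2aa1, a probe that the scanner files name only by its Ensembl transcript, and which is therefore not among the 55, went from 1339 and 1307 in control to 688 and 845 with BIO at base 529. Its log2 ratio was -0.85 ± 0.12 (SE, n = 2, limma adjusted p = 0.0022), while the Hist2h2aa2 probe at the stop codon, which lists the same transcript, rose by 0.74.

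The third was Hist1h3i, whose own probe at base 423, holding the stem-loop, rose by 0.49, while the Hist1h3d probe lists its transcript as well and fell. The Hist1h3d probe covers coding bases too, chr13:23667979-23668038 on the plus strand.
Hist1h3d: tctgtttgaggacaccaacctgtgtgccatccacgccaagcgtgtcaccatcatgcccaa
For Hist3h2a and Hist1h2ac the gene's own probe, at bases 767 and 2426, stood at -0.30 and -0.08 without passing. The stop-codon probes of Hist1h2ak and Hist1h2ah, which list these transcripts, rose by 0.82 and 0.77. Such a shared probe sums all the transcripts it can bind, and the share of each was not measured.

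**Figure D3:**
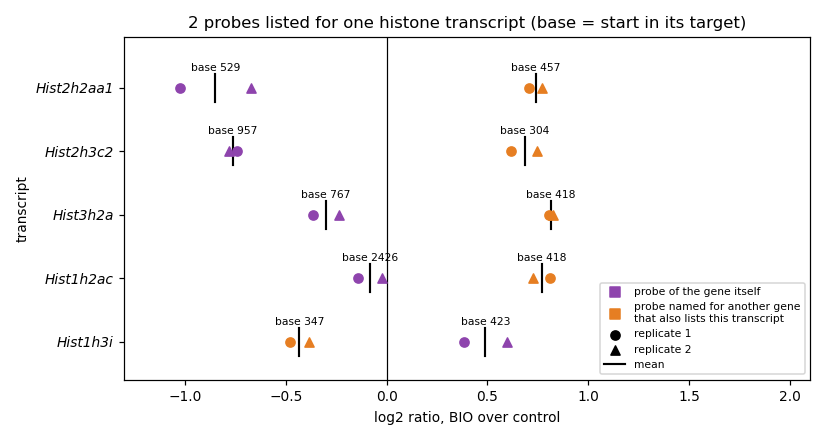
Log2 ratio of BIO over control (x axis) of pairs of probes listed for the same histone transcript (y axis), with purple for the gene's own probe and orange for a probe named for another gene, circles for replicate 1, triangles for replicate 2 and bars for the mean; base is the probe's start in its own target. For Hist2h2aa1, Hist2h3c2, Hist3h2a and Hist1h2ac the gene's own probe lies below 0 and the shared probe between 0.68 and 0.82, and for Hist1h3i the order is the reverse.

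The stem-loop that ends histone mRNAs could be read in some probes. It was searched as 6 bases starting with GG, a loop of 4 bases and the reverse complement of the 6, on the mRNA strand. It was whole in 5 of the 55 probes (9.09%), against 31 of the array's 39429 (0.0786%). A stretch of each is shown with the stem-loop in capitals, since these probes read the end of the message.
Hist1h3g: ctttaaaGGCTCTTCTTAGAGCCaccca
Hist1h3i: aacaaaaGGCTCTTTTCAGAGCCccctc
Hist1h3a: aaccaaaGGCTCTTTTCAGAGCCaca
Hist1h4m: aactaaaGGCCCTTTTCAGGGCCatccaa
Hist2h2bb: cccaaaaGGCTCTTTTCAGAGCCacttta
The first 4 rose, by 0.92, 0.49, 0.46 and 0.41, and the Hist2h2bb probe did not pass, at -0.30. After median centering only Hist1h3g of these 4 kept its call. Hist1h2ab and Hist1h2ae, whose probes end within the stem-loop after at least 10 of its bases, rose as well. AATAAA or ATTAAA, the usual polyadenylation signals, occurred in 5 member probes (9.09%, against 16.7% of the array). Of these 1 rose, Hist1h2ag, and 2 fell, Hist2h2bb at base 1348 and Hist3h2ba. A signal's letters in a probe do not show that it is used.

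The promoters of the members were searched for short motifs. In the RefSeq promoter table (GRCm38.p6), 43 members were matched, and the 250 bases before the start were searched on both strands for CCAAT, a box bound by NF-Y, and TATAAA, the TATA box, which can share at most 1 base. CCAAT was found in 36 of the 43 (83.7%, against 34.5% of 27025 promoters) and TATAAA in 22 (51.2%, against 13%). In the 4 head-to-head pairs above the starts lay 168 to 281 bases apart, so the stretches searched overlap and are not separate counts. Among members that rose CCAAT occurred in 16 of 18, among those that fell in 3 of 4, and among those not called in 14 of 18, while TATAAA occurred in 9 of 18, 2 of 4 and 9 of 18. With 4 fallen genes, no difference between the groups was tested. A risen and a fallen member are shown by the last 180 bases before the start, with the motifs of either strand in capitals, namely Hist2h2ac at chr3:96220881-96221060 on the minus strand and Hist3h2ba at chr11:58948731-58948910 on the plus strand.
Hist2h2ac: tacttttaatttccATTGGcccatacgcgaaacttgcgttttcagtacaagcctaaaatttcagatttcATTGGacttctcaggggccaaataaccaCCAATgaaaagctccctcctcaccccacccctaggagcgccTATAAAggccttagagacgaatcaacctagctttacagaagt
Hist3h2ba: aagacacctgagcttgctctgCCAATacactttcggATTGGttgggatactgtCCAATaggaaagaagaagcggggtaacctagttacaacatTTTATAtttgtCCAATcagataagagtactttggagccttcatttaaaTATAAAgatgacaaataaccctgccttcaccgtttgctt
The Hist2h2ac stretch holds CCAAT 3 times and TATAAA once, and the Hist3h2ba stretch holds CCAAT 4 times and TATAAA 2 times.

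The genes that act around the canonical histones were read from lists, each gene by its brightest tested probe. Of all probes tested, 8.95% rose and 14.3% fell. Among genes of S phase, when canonical histones are made, 21 of 23 rose and none fell by limma's test (0 were lower at an unadjusted p under 0.05), with a median log2 ratio of 0.72, close to that of the H2A probes. They ran from Mcm7, a subunit of the replicative helicase, at 0.20 without passing, to Prim1, the primase subunit, at 1.10 (limma adjusted p = 0.00067). Ccne1, a cyclin of S phase entry, was the other that did not pass, at 0.35 (limma adjusted p = 0.051). Among genes of G2 and mitosis 12 of 12 rose, with a median of 1.05, from 0.79 for the cyclin Ccnb2 to 1.41 for the kinetochore motor Cenpe. Both medians lay above those of the H1, H2B, H3 and H4 probes.

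Of 17 chaperones and deposition factors 6 rose and 1 fell, against 8.95% and 14.3% of all probes tested, with a median of 0.29. Chaf1b, a subunit of the CAF-1 complex that loads H3 and H4 behind the replication fork, was the highest at 0.90 (limma adjusted p = 0.00082). Rbbp7, which binds H4 in several chromatin complexes, was the lowest at -0.50 (limma adjusted p = 0.013). Of 11 genes of histone mRNA transcription and end processing 2 rose and none fell by limma's test (0 were lower at an unadjusted p under 0.05). The shares of all probes tested were 8.95% and 14.3%, and the median of these genes was 0.24. Casp8ap2, a component of the histone locus body, rose by 0.51 (limma adjusted p = 0.011), and Eri1, a nuclease that acts on the stem-loop, by 0.45 (limma adjusted p = 0.030). Slbp, the stem-loop binding protein, stood at 0.24 and did not pass (limma adjusted p = 0.14), and the lowest was Lsm11, of the U7 particle, at -0.21.

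Variant histones, listed here as replication-independent, can replace canonical ones, in many cases outside S phase. Whether each listed gene, such as H2afx, is independent of replication was not tested. Of 11 tested, 4 rose and 2 fell, against 8.95% and 14.3% of all probes tested, and the median was 0.04. Cenpa, the centromeric H3, rose by 0.76 (limma adjusted p = 0.0018), and H2afx, H2afj and H2afz rose by 0.59, 0.57 and 0.38. The H3.3 genes were the lowest. H3f3a had 76719 and 81089 in control and 48578 and 55069 with BIO, a log2 ratio of -0.53, and H3f3b had a log2 ratio of -0.54 (limma adjusted p = 0.0129 and 0.00966). The calls of H3f3a, H3f3b, Casp8ap2 and Rbbp7 were lost under median centering and also under the processed signals.

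**Figure D4:**
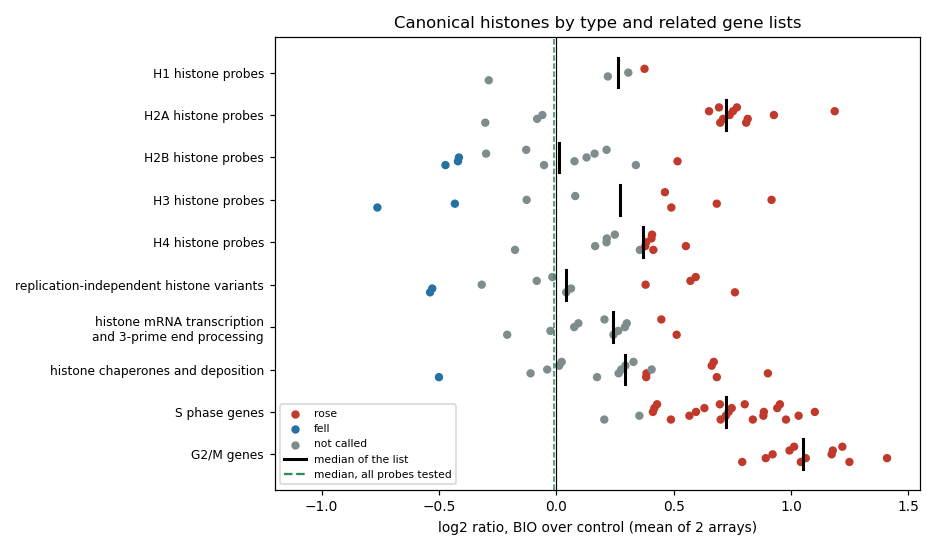
Mean log2 ratio of BIO over control on 2 arrays (x axis) for the tested histone probes of each type and for the genes of related lists (y axis), with a point per probe or gene, black bars at the medians, red for rises, blue for falls and grey for those that passed neither test. The H2A and S phase medians both lie at 0.72 and the G2/M median at 1.05, while the H2B median lies at 0.01 and that of the variants at 0.04.

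Markers of the cell types in an explant moved too, all measured well above background in every channel. Of all probes tested, 14.3% fell. All 5 endothelial markers fell, with a median log2 ratio of -2.13, and the sum of their processed signals was 20207 and 23965 in control and 2937 and 6127 with BIO. Of 3 mesenchymal markers 2 fell, and their sum went from 82859 and 87167 to 55054 and 61149, while Tbx18 stood at -0.22 without passing. Of 3 epithelial markers 2 fell, with sums of 40053 and 41414 in control and 22238 and 25583 with BIO. Krt8 was the brightest of them, with 28018 and 27676 in control and 13851 and 16942 with BIO, while Epcam stood at 0.02 without passing. Erythroid markers fell in 2 of 5, with sums of 168802 and 194892 in control and 122434 and 103335 with BIO. Macrophage markers fell in 2 of 3, with sums of 3227 and 3730 in control and 1782 and 2767 with BIO, while Emr1 stood at -0.04 without passing. The part of these shifts in the histone ratios was not tested.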

How the data were processed

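Per the file headers and labels, the authors hybridized 2-color Agilent arrays of 60-base probes, 4 spots per probe, and quantified them with Agilent Feature Extraction 10.7.3.1. The deposited scanner tables give mean spot intensity and median local background intensity per channel, and processed signals that the software had background-subtracted and dye-normalized. The authors also deposited a table of linear BIO over control values, unit score here, whose making is not given in the sources used here. No spot was saturated. Of the spots, 3.83% and 3.54% were outliers.

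From the intensities, limma 3.58.1 in R 4.3.3 applied normexp with an offset of 50 and loess within each array, with control and outlier spots at weight 0, which were then left out. Replicate 2 was turned, spots of a probe were averaged, and probes with over 0.5 of their spots well above background in the control or the BIO channel of both arrays were fitted. Log2 ratios were tested against 0 (lmFit and eBayes, two-sided, Benjamini-Hochberg, 0.05). The number of arrays, 2, limits precision. The median SE was 0.111, and a dye effect could be averaged but not fitted. Both arrays were scanned on 1 slide. Whether the pools were separate litters is not stated, so p-values measure at most the spread between these arrays. Each SE and p-value is moderated: the variance of a probe is drawn toward that of all probes tested, with 7.14 prior degrees of freedom. With 2 arrays they rest mostly on this common variance and little on the spread of the probe itself. Statements that BIO and control values did not overlap describe the signals behind a call and are no further test. The fit was tested on simulated data.

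Genes named in full were, per type, up to 3 rises and 3 falls of largest size, the brightest probe, polyadenylated and testis members, and genes whose probes disagree. In each list the extremes and exceptions were named, and Slbp and Eri1 were chosen after their values were seen. Members and lists were chosen with earlier results of these data known. Names were matched to RefSeq symbols for all 55 probes, 44 by accession and 11 by synonym. Alternatives were processed signals, median centering, an offset of 16, no filter, outlier spots kept, the brightest probe per gene, the score table and each array alone. Tables were joined with Python 3.11.15 and pandas 2.3.3, and figures drawn with matplotlib 3.10.9.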

Additional observations from a re-analysis of the deposited data

How the results depend on the processing

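Of the 23 rises, 16 remained with the scanner software's signals, 11 after median centering and 20 with no filter on dim probes. The count of rises fell to 11 with median centering and to 7 with the score table, and of these 11 and 5 were among the 23. The count of falls, 5, became 1 with the processed signals (Hist2h3c2), 2 after median centering (Hist2h2bb and Hist2h3c2) and 3 with the score table. Of those 3, Hist2h2be and Hist3h2ba were among the 5, and Hist1h3c was not. The cause of these changes was not tested, and the share of all probes called in each setting is not given here. The score table has values identical on both arrays for 19.9% of tested probes.

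The median over all tested members, 0.32, was 0.53 with the processed signals, 0.54 with the score table and 0.39 with an offset of 16. It was 0.23 after median centering, and 0.22 with no filter or with 1 member per group of alike sequences. On single arrays it was 0.21 to 0.39. The H1 median of 0.26 was 0.50 with the processed signals and 0.15 with no filter, and ran from -0.0381 to 0.37 on single arrays. The H2A median of 0.72 was 0.75 with the processed signals and with an offset of 16, 1.00 with median centering, 0.73 with outlier spots kept, 0.71 with no filter or the brightest probe per gene, 0.69 with 1 member per group of alike sequences (an alternative chosen after seeing the data), and 0.73 to 0.74 on single arrays. The H2B median of 0.01 was 0.0905 with the processed signals, 0.0946 with the score table, -0.0342 after median centering, 0.0774 with the brightest probe per gene, and -0.0469 to -0.0092 on single arrays. The H3 median of 0.27 was 0.43 with the processed signals and the score table, and 0.15 to 0.33 on single arrays. The H4 median of 0.37 was 0.53 with the processed signals, 0.54 with the score table, and 0.23 to 0.42 on single arrays. The 2 members that met the fold rule became 14 at 1.5-fold, 0 at 3-fold and 4 without replicate 1. Neither passing the test in these settings, Hist1h2aa stood at 0.0233 with the processed signals and Hist1h3f at -0.0081 after median centering, each on the other side of 0 from its reported value. No call of a member changed direction.

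No paired analysis was possible because none was left to add: the reported test already uses the ratio of BIO to control within each array, and with 1 ratio per array a further replicate block has nothing to fit. Dim members are limited by background, and the offset shrinks their ratios.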
